A study of Mus musculus with 15 samples.

Results

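Msgn1, Tbx6, Pcdh8 and Pcdh19 are 4 mouse genes of the presomitic mesoderm, chosen by name, out of 18193 genes with an array probe set that carried no other gene's symbol. Each gene was represented by its probe set with the highest mean over all 15 arrays, and any further probe sets served as a check. Msgn1 and Tbx6 each had 1 probe set, Pcdh8 had 2 and Pcdh19 had 3, and all 4 genes passed the filter on dim signals that left 12400 genes for testing.

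The arrays came from a study that drove mouse embryonic stem (ES) cells towards paraxial mesoderm in culture, with 3 biological replicates in each of 5 groups. ES cells of line E14 (strain 129P2) were the day 0 group: they were unsorted, and were maintained in serum on feeder fibroblasts with LIF and the 2i inhibitors CHIRON99021 and PD0325901. All differentiated groups were grown without fetal serum and received BMP4 at 10 ng/ml for 2 days. They then received DMSO at 0.5% and the BMP receptor inhibitor LDN193189 at 0.1 µM, together with a Wnt pathway activator. In CDL medium the activator was CHIRON99021, a GSK3 inhibitor, at 1 µM, and in RDL medium it was Rspo3, a secreted protein that enhances Wnt signalling, at 10 ng/ml. At day 4, E14 cells of each medium were sorted as positive for Msgn1-repV, a reporter of Msgn1. At day 6, cells of another line, CK35 (strain 129Sv), were sorted in each medium as positive for Pax3-GFP. Day therefore changed together with line, strain and sort, and these cannot be told apart in any comparison of days. ES cells likewise differed from the sorted cells in medium and in having had no sort.

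Presomitic mesoderm is the tissue of the tail end of the embryo from which somites, the precursors of vertebrae and skeletal muscle, are cut off one after another. Wnt and FGF signals keep its posterior part immature, and a Notch-driven clock sets the rhythm of segmentation. Msgn1 (mesogenin 1) is a basic helix-loop-helix transcription factor and Tbx6 is a T-box transcription factor, and in the mouse embryo both are needed for cells to become presomitic mesoderm. Pcdh8 (also called PAPC) and Pcdh19 are protocadherins, cell surface adhesion proteins, and Pcdh8 is known in the mouse for banded expression where somite boundaries form.

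The start regions of the genes are shown because the media differ in how they activate the Wnt pathway, and Wnt input reaches genes through TCF and LEF factors. Each sequence is the RefSeq window of 300 bases on build GRCm38.p6, from 250 bases before to 50 bases after the annotated gene start, read 5′ to 3′ along the gene's own strand. Msgn1 lies on the minus strand with its window at chr12:11208899-11209198, Tbx6 on the plus strand at chr7:126781233-126781532, and Pcdh8 on the minus strand at chr14:79771263-79771562. The annotated start of Msgn1 is its start codon, since the 50 bases after it open with atg. Capitals mark matches, on either strand, to the TCF and LEF core CTTTGA, the T-box element TCACAC and the RBPJ core TGGGAA.
Msgn1: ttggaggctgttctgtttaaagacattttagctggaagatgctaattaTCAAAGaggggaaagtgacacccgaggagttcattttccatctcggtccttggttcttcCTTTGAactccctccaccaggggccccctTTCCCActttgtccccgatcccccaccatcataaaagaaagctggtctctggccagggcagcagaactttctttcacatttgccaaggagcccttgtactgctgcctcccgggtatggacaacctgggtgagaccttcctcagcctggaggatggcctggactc
Tbx6: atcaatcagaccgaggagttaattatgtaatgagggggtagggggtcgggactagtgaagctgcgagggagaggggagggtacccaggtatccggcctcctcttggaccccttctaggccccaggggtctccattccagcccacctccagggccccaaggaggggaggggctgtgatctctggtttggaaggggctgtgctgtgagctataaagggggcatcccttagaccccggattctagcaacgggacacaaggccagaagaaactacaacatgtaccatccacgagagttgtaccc
Pcdh8: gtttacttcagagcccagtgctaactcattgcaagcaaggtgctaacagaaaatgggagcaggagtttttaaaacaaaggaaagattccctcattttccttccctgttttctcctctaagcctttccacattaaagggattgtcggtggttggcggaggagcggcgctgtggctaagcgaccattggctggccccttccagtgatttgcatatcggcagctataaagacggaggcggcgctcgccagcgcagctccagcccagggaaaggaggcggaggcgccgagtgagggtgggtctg

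In the Msgn1 window the TCF and LEF core occurred 2 times, with first bases at -202 on the reverse strand and -143 on the forward strand, counted from the annotated start. The RBPJ core occurred 1 time at -114 on the reverse strand, and the E-box CANNTG, the kind of site that helix-loop-helix factors bind, 1 time at -38; none of these overlapped another. None of these 4 motifs occurred, in the letters searched, in the windows of Tbx6 and Pcdh8. The Pcdh19 window (minus strand, chrX:133688944-133689243) runs from 199 bases before to 101 bases after the annotated gene start, and in it only the E-box occurred, 1 time at -138. Of all 32851 RefSeq windows of this length, 16% held the TCF and LEF core, 14.5% the T-box element, 25.6% the RBPJ core and 72.3% the E-box. A match describes the letters and is no evidence of binding, and a window without one says nothing of sites elsewhere. Other spellings of such sites were not searched, and a window without a match may hold them.

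The median signal of an array ranged from 29.4 to 31.2 units, and 0 arrays held the same values as another. CDL day 4 replicate 1 stood apart: 8 ES cell markers had a median of 27.6% of their mean ES signal on it (range 19.6% to 43.9%), against medians of 1.33% and 1.97% on the other CDL day 4 arrays and 1.34% to 1.63% on the RDL day 4 arrays. The summed signal of those markers, which include Pou5f1 and Nanog, was 7175 on that array, 1122 and 934 on its mates, 679 to 872 on RDL day 4 arrays and 24134 to 24835 on ES arrays. RDL day 6 replicate 1 correlated least with the other arrays of its group (mean r = 0.989). The summed signal of 8 fibroblast markers was 199 to 221 in ES cells, 833 to 1049 in CDL and 704 to 800 in RDL at day 4, and 5179 to 7064 in CDL and 7494 to 9905 in RDL at day 6. Of these 8, Col1a1, Col1a2, Col3a1 and Thy1 lay above the array medians at day 4 in both media. Their group means were 35.5 to 567 in CDL and 48.8 to 302 in RDL. Postn, Lox, Dcn and S100a4 lay below the medians at day 4. At day 6 the sums were mostly Col3a1 (means of 4312 in CDL and 6794 in RDL) and Col1a2 (1421 in CDL and 1873 in RDL). Col1a1 and Dcn also lay above the array medians at day 6, and Postn did in RDL only. Thy1 (21.4 in CDL and 16.6 in RDL), Lox and S100a4 lay below them in both media. The part of these markers in the results was not tested. In these populations, fewer cells with a transcript and less of it per cell cannot be told apart.

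All 4 genes had their highest signals in the Msgn1-repV+ cells of day 4, in both media, and far lower ones in ES cells and in the Pax3-GFP+ cells of day 6. At day 6 Pcdh19 lay above the array median on every array and Tbx6 below it. Msgn1 and Pcdh8 lay above it on every CDL array, and on 1 and 2 of the 3 RDL arrays. The media separated the genes at day 4: Msgn1 was higher in CDL than in RDL, and Pcdh8 was lower. Pcdh19 leaned the same way as Pcdh8, and Tbx6 was close to level, without passing the test. By day 6 none of the 4 differed past the test between the media, beside 7.61% of all genes that did.

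Msgn1 is the gene whose reporter was used for the day 4 sort, so its day 4 level against the other days is tied to that choice. Its signals were 24.6, 35.9 and 27.0 in the ES replicates 1 to 3. At day 4 they were 366, 334 and 312 in CDL and 241, 198 and 148 in RDL. At day 6 they were 44.3, 43.9 and 43.6 in CDL and 29.0, 31.1 and 25.9 in RDL. Every day 4 array lay above every ES and day 6 array, and every CDL array lay above every RDL array of the same day. The order of the group means was CDL day 4 (337 ± 27.4; SD, n = 3, as for all group means here), RDL day 4 (196 ± 46.6), CDL day 6 (43.9 ± 0.366), ES (29.1 ± 5.99) and RDL day 6 (28.7 ± 2.61). The last pair did not differ beyond its spread.

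Tbx6 had signals of 16.5, 14.1 and 19.5 in ES cells, the lowest of the 5 groups. At day 4 the signals were 824, 931 and 846 in CDL and 863, 775 and 616 in RDL. At day 6 they were 25.5, 25.9 and 25.2 in CDL and 27.9, 30.3 and 19.6 in RDL. The media overlapped on both days, while the day 4 arrays lay far above all others. The means were 16.7 ± 2.70 in ES cells, 867 ± 56.5 in CDL and 751 ± 125 in RDL at day 4, and 25.5 ± 0.371 in CDL and 25.9 ± 5.64 in RDL at day 6. Neither pair of media differed beyond its spread. On every ES and day 6 array Tbx6 lay below the median of all probe sets on that array.

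Pcdh8 had signals of 10.8, 7.93 and 15.6 in ES cells, near or below the constant of 12.6 that was added before taking logarithms. At day 4 the signals were 141, 370 and 329 in CDL and 635, 917 and 663 in RDL. At day 6 they were 56.8, 61.1 and 36.3 in CDL and 27.9, 60.0 and 50.1 in RDL. At day 4 every CDL array lay below every RDL array, and the lowest was CDL replicate 1, the array with the ES markers. The media overlapped at day 6. The means were 11.5 ± 3.88 in ES cells, 279.9 ± 122 in CDL and 738 ± 155 in RDL at day 4, and 51.4 ± 13.2 in CDL and 46.0 ± 16.5 in RDL at day 6. RDL day 4 was highest and ES cells lowest, and the day 6 groups between them did not differ beyond their spread. Its brighter probe set is of the array design's x_at kind, which can also bind related transcripts. The second probe set of Pcdh8 gave 138, 323 and 307 in CDL and 602, 736 and 655 in RDL at day 4, with the same separation.

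Pcdh19 had signals of 108, 113 and 119.95 in ES cells, above the array median on every ES array. At day 4 they were 1981, 3080.4 and 2992 in CDL and 3482, 4012 and 3345 in RDL. At day 6 they were 210.5, 269 and 192 in CDL and 145, 268 and 248 in RDL. As for Pcdh8, every CDL array of day 4 lay below every RDL array of day 4, with CDL replicate 1 lowest, and the media overlapped at day 6. The means were 114 ± 5.88 in ES cells, 2684 ± 611 in CDL and 3613 ± 352 in RDL at day 4, and 224 ± 40.1 in CDL and 220.3 ± 66.3 in RDL at day 6. In the order of means the neighbouring media did not differ past the threshold at either day, while ES cells were below both day 6 groups.

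**Figure D1:**
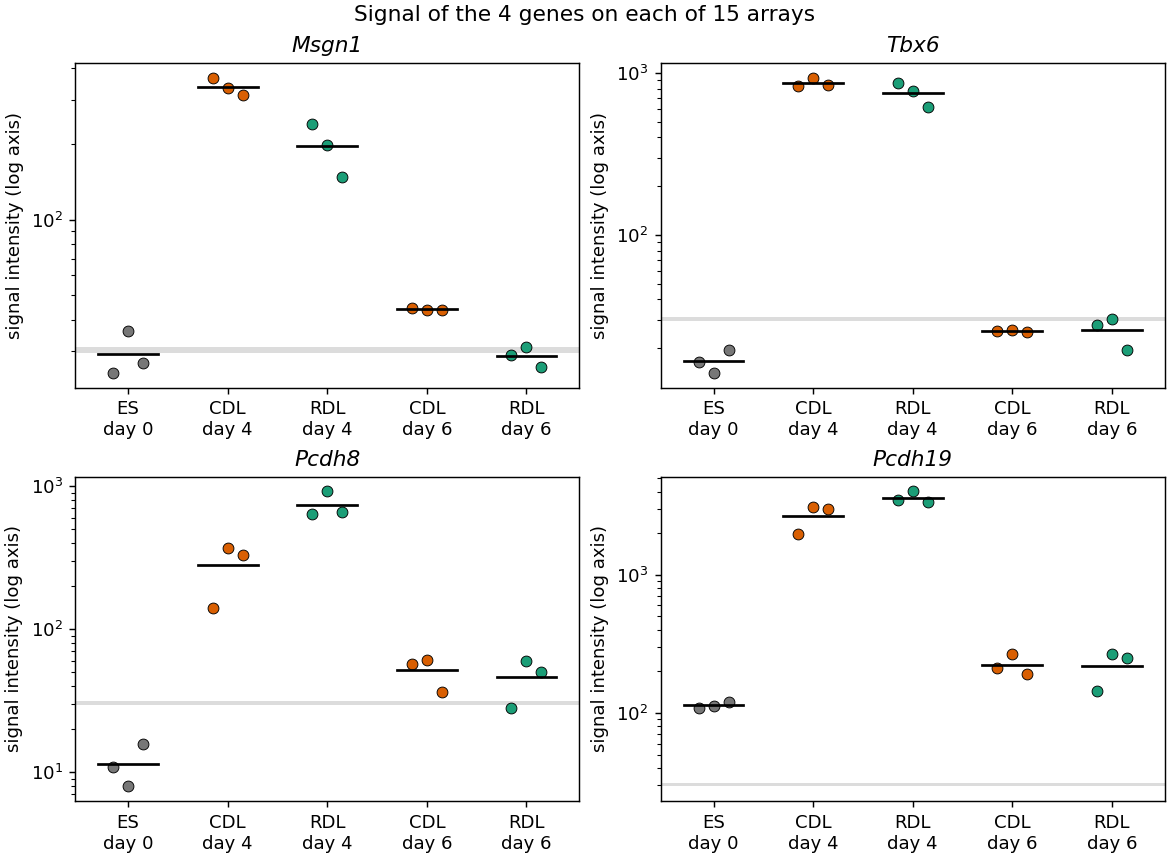
Signal intensity (log axis) of Msgn1, Tbx6, Pcdh8 and Pcdh19 on each of 15 arrays, in 5 groups of 3; points are arrays in the order of replicates 1 to 3, black bars are group means and the grey band spans the array medians (29.4 to 31.2). All 4 genes were highest at day 4; CDL lay above RDL on every day 4 array for Msgn1 and below it for Pcdh8 and Pcdh19.

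Against ES cells, all 4 genes were higher at day 4 in CDL and all 4 in RDL, with no overlap of arrays. Over all genes tested, 26.6% were called higher in CDL day 4 and 27.6% in RDL day 4, at an adjusted p under 0.05, and 33.5% and 34% had non-overlapping arrays in that direction. Differences between groups are given from here on as differences of log2(signal + 12.6), which understate the change of dim genes, with the standard error (SE) and Benjamini-Hochberg adjusted p of a limma fit over the 12400 genes. In CDL day 4 the increases over ES cells were 3.07 (SE 0.14) for Msgn1, 4.91 (SE 0.13) for Tbx6, 3.51 (SE 0.30) for Pcdh8 and 4.39 (SE 0.20) for Pcdh19. In RDL day 4 they were 2.30 (SE 0.14) for Msgn1, 4.69 (SE 0.13) for Tbx6, 4.96 (SE 0.30) for Pcdh8 and 4.84 (SE 0.20) for Pcdh19. The largest adjusted p among these 8 was 6.47e-08, for Pcdh8 in CDL. The ES signals of Tbx6 and Pcdh8 lay below the array medians, so the size of their differences is uncertain. Tbx6 passed the filter on dim signals only through its day 4 arrays, so its direction and ranks against ES cells were tied to that filter. Both comparisons share the ES arrays. By increase over ES cells among all 12400 genes, Tbx6 ranked 29th, Pcdh19 51st, Pcdh8 98th and Msgn1 136th in CDL day 4. In RDL day 4 Pcdh8 ranked 27th, Pcdh19 30th, Tbx6 37th and Msgn1 295th. The reporter of Msgn1 chose the day 4 cells, so its increases and ranks here are tied to that sort.

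The comparison of CDL with RDL at day 4 asks how a GSK3 inhibitor and Rspo3 differ in reporter-positive cells. Msgn1 was higher in CDL, with means of 337 in CDL and 196 in RDL, a ratio of 1.725 and a log2 difference of 0.77 (SE 0.14, adjusted p = 0.00403). Pcdh8 was lower in CDL, with means of 279.9 in CDL and 738 in RDL, a ratio of 0.379 and a log2 difference of -1.45 (SE 0.30, adjusted p = 0.00865). It had the 11th largest decrease of all genes tested. So 1 of the 4 genes was called higher and 1 lower, beside 2.9% of all genes called higher and 1.52% called lower (4.41% in all). Pcdh19 differed by -0.45 (95% interval -0.88 to -0.02, adjusted p = 0.307). In a separate limma fit over 21613 probe sets, its second probe set differed by -0.65 (adjusted p = 0.0329), and its brightest one had an adjusted p of 0.338. Over all its alternatives the adjusted p of Pcdh19 lay between 0.0329 and 0.733. For Tbx6 the difference was 0.21 (95% interval -0.07 to 0.50, adjusted p = 0.506). Arrays of the media did not overlap for 3 of the 4 genes, 1 above and 2 below, as for 24.5% of all genes (12.1% above and 12.4% below).

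Without CDL day 4 replicate 1, Msgn1 differed by 0.71 (adjusted p = 0.018) and Pcdh8 by -1.04 (adjusted p = 0.0222), while Pcdh19 differed by -0.25 (adjusted p = 0.733). Over all their alternatives the adjusted p lay between 0.00152 and 0.0366 for Msgn1 and between 0.00269 and 0.0552 for Pcdh8, whose call was lost without RDL day 4 replicate 2 (-1.28, adjusted p = 0.0552).

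**Figure D2:**
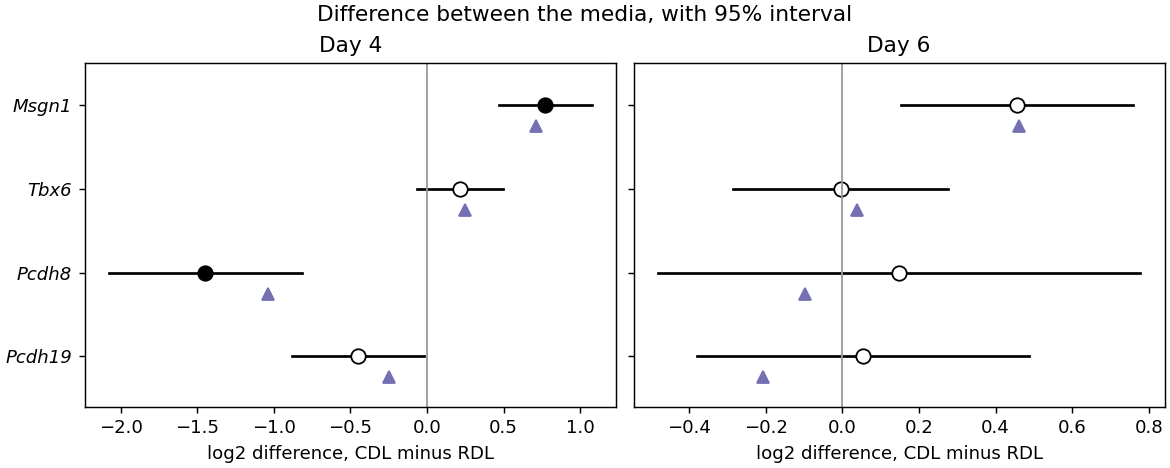
Differences between the media in log2(signal + 12.6), CDL minus RDL, at day 4 (left) and day 6 (right; the scale differs). Circles with bars are the estimate and its 95% interval, filled where the adjusted p was under 0.05, and triangles are the estimate without CDL day 4 replicate 1 (left) or RDL day 6 replicate 1 (right). Msgn1 (0.77) and Pcdh8 (-1.45) lay on opposite sides of 0 at day 4, and at day 6 only the interval of Msgn1 lay clear of 0.

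One gene's log2(signal + 12.6) minus another's on the same array lessens what scales both alike, though less so for dim signals, on which the constant weighs. The offset between probe sets has no meaning by itself, so only its difference between media is given. At day 4 the Msgn1 minus Pcdh8 value was -0.14 to 1.30 in CDL and -2.14 to -1.35 in RDL, and the means differed by 2.22, or 1.75 without CDL replicate 1. The Msgn1 minus Pcdh19 value was -3.21 to -2.40 in CDL and -4.39 to -3.79 in RDL, and the means differed by 1.22. For the transcription factors, Msgn1 minus Tbx6 was -1.44 to -1.14 in CDL and -1.97 to -1.79 in RDL, and the means differed by 0.56. The arrays of the media did not overlap for these pairs. No pair passed a test: the two-sided exact permutation test cannot go below p = 0.1 with 3 arrays against 3 (0.171 after adjustment over 12 pairs and days), and the pairs share their 4 genes.

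**Figure D3:**
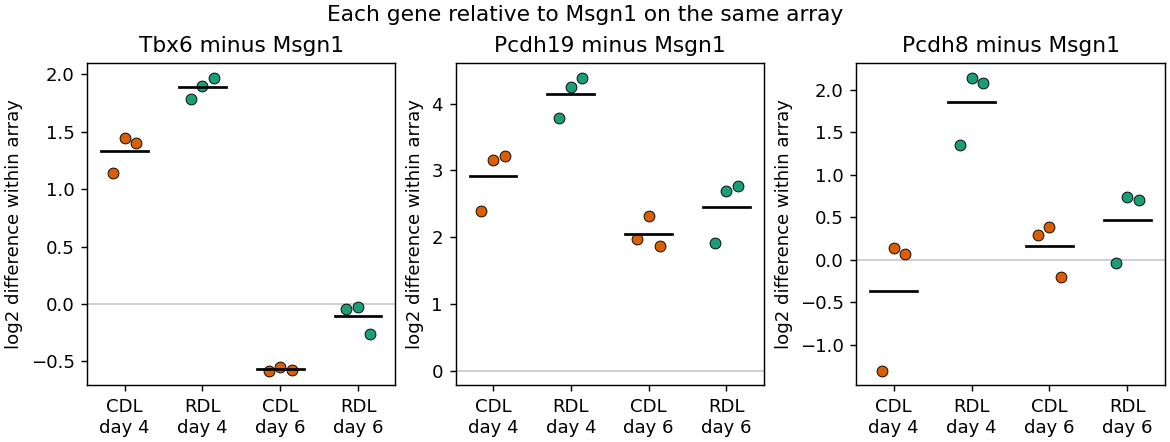
Difference of log2(signal + 12.6) between Tbx6 (left), Pcdh19 (middle) or Pcdh8 (right) and Msgn1 on the same array, in the sorted groups; points are arrays, bars are means, and the scales differ. At day 4 the CDL points lay below the RDL points in each panel, a separation that 3 arrays against 3 are too few to test past the threshold; at day 6 the media overlapped for Pcdh19 and Pcdh8.

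From day 4 to day 6 all 4 genes fell in both media, beside 22% of all genes called lower in CDL and 17.2% in RDL. Tbx6 fell furthest of the 4: its day 6 mean, below the array medians, was 2.94% of the day 4 mean in CDL and 3.45% in RDL. Its log2 difference was -4.53 (SE 0.13, adjusted p = 6.31e-13) in CDL, the 6th largest decrease of all genes, and -4.31 (SE 0.13, adjusted p = 1.33e-12) in RDL, the 8th largest. Tbx6 passed the filter on dim signals only through its day 4 arrays, so its direction and ranks here were tied to that filter. Msgn1 at day 6 was 13.0% of its day 4 mean in CDL and 14.7% in RDL (log2 differences of -2.63 and -2.31, SE 0.14 each). Its day 6 signals were near the array medians, so the sizes of the falls of Msgn1 and Tbx6 are uncertain. Pcdh19 was 8.34% of its day 4 mean in CDL and 6.10% in RDL (log2 differences of -3.50 and -4.00, SE 0.20 each). Pcdh8 was 18.4% of its day 4 mean in CDL and 6.23% in RDL (log2 differences of -2.11 and -3.70, SE 0.30 each). The largest adjusted p of these 8 falls was 3.91e-05, for Pcdh8 in CDL. Line, strain and sort reporter changed with the day, so how much of each fall goes with time cannot be told apart from them.

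The interaction asks whether the difference between the media was the same at both days. For Pcdh8 the days differed: CDL minus RDL was 0.15 at day 6 and -1.45 at day 4, an interaction of 1.59 (SE 0.42, adjusted p = 0.0353), so 1 of the 4 genes was called, beside 5.39% of all genes (2.31% upward and 3.08% downward). Pcdh19 gave 0.50 (95% interval -0.11 to 1.12), Msgn1 -0.32 (-0.74 to 0.11) and Tbx6 -0.22 (-0.62 to 0.18), with adjusted p of 0.44, 0.504 and 0.649. The call of Pcdh8 was not firm. In the limma fit over 21613 probe sets its second probe set gave 1.49 (adjusted p = 0.0554) and its brighter one 1.59 (adjusted p = 0.0383). With a constant of 1 the interaction was 1.69 (adjusted p = 0.0671), and over all alternatives the adjusted p lay between 0.017 and 0.103.

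At day 6 none of the 4 genes was called between the media, beside 7.61% of all genes, and at an unadjusted limma p under 0.05 only Msgn1 was, with an unadjusted value of 0.00589. Msgn1 differed by 0.46 (95% interval 0.15 to 0.76, adjusted p = 0.0679) with every CDL array above every RDL array, which 9.6% of all genes showed. It was called with a constant of 1 (0.60, adjusted p = 0.0349) and with only the groups compared (0.46, adjusted p = 0.0182). A fit that pairs same-numbered arrays also called it (0.46, adjusted p = 0.00529), though whether they pair at day 6 is unsettled. Over all alternatives for Msgn1 the adjusted p lay between 0.00529 and 0.202. Markers listed for other cell types had summed signals apart between the media at day 6. For 6 endoderm markers the sum was 215 to 263 in CDL and 427 to 535 in RDL. For 4 endothelial markers it was 94.3 to 129.7 in CDL and 193 to 204 in RDL. Among the endoderm markers Sox17 had means of 26.3 in CDL and 95.5 in RDL, and Cer1 93.3 in CDL and 213.5 in RDL. Foxa2 (44.9 in CDL and 56.9 in RDL) and Gata6 (34.9 in CDL and 79.3 in RDL) also had higher means in RDL. Gata4 (22.5 in CDL and 21.2 in RDL) and Afp (23.3 in CDL and 19.8 in RDL) did not. Of the endothelial markers Kdr had 68.15 in CDL and 145.5 in RDL, while Pecam1 had 12.7 in CDL and 12.0 in RDL. Cdh5 and Tek lay below the array medians in both media. Of these markers 2 to 3 of 6 and 1 of 4 lay above the array median in CDL, and 4 of 6 and 1 of 4 in RDL, and their part in the results was not tested. The remaining differences were -0.0039 for Tbx6 (-0.28 to 0.28), 0.15 for Pcdh8 (-0.48 to 0.78) and 0.05 for Pcdh19 (-0.38 to 0.49). Against ES cells, all 4 genes were called higher in CDL day 6 (27.8% of all genes were) and 3 in RDL day 6 (28.3% of all genes were). In CDL day 6 the differences from ES cells were 0.45 for Msgn1 (adjusted p = 0.0127), 0.38 for Tbx6 (adjusted p = 0.0194), 1.40 for Pcdh8 (adjusted p = 0.000648) and 0.89 for Pcdh19 (adjusted p = 0.0012). In RDL day 6 they were 0.39 for Tbx6 (adjusted p = 0.0183), 1.25 for Pcdh8 (adjusted p = 0.00162) and 0.84 for Pcdh19 (adjusted p = 0.00196). Msgn1 in RDL day 6 was within 0.31 of ES cells either way (-0.01, 95% interval -0.31 to 0.29, adjusted p = 0.962). The small differences of Tbx6 and Msgn1 lost their call under 1 or more alternatives, as did that of Pcdh19 with its dimmest probe set.

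Genes that act before, with or after the 4 were read from lists written from general knowledge. Like the 4, most genes of the first lists were higher at day 4 than in ES cells: 14 of 16 upstream genes in CDL and 13 in RDL, and 12 of 13 Notch and segmentation genes in CDL and 13 in RDL. Of all genes, 26.6% were called higher in CDL day 4 and 27.6% in RDL day 4. List genes such as Wnt8a, Fgf17, Cdx4 and Ripply2 passed the filter on dim signals only through day 4 arrays, so their increases were tied to it. For 16 tested upstream signals and factors of presomitic fate the median difference at day 4 was 0.37, against -0.0023 over all genes. In CDL 7 were higher than in RDL and 0 lower, beside 2.9% and 1.52% of all genes. They included the homeobox gene Evx1 (351 ± 44.8 in CDL and 192 ± 30.04 in RDL, difference 0.83), the caudal factor Cdx4 (38.7 ± 4.54 in CDL and 16.9 ± 1.13 in RDL, 0.79), the streak factor Mixl1 (1157 ± 24.8 in CDL and 713 ± 60.1 in RDL, 0.69) and the growth factor Fgf4 (1.03). Cdx4 passed the filter on dim signals only through its CDL day 4 arrays, so its direction here was tied to that filter. Fgf4 is also an ES cell gene (2337 ± 130.2 in ES cells), and in CDL it ranged from 203 to 573. Without CDL day 4 replicate 1, 6 were called higher: the calls of Wnt8a and Nkx1-2 were lost and 1 other gene gained one. Msgn1 thus stood on the higher side in CDL together with these, while Fgf8 (0.21, adjusted p = 0.471) and Lef1 (0.05, adjusted p = 0.962) gave no call, as Tbx6 gave none.

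The median difference of 13 tested Notch and segmentation genes at day 4 was -0.16, or 0.04 without CDL replicate 1, when 4 were called lower. With all arrays 0 were higher and 5 lower in CDL, beside 2.9% and 1.52% of all genes. They were led by Ripply2, a repressor that acts on Tbx6 protein in the mouse (10.8 ± 1.57 in CDL and 63.4 ± 11.5 in RDL, -1.69), and by the helix-loop-helix factors Mesp2 (63.9 ± 13.3 in CDL and 196 ± 59.4 in RDL, -1.42) and Mesp1 (110.0 ± 36.2 in CDL and 228.5 ± 26.3 in RDL, -1.01). The others were Hey1, a Notch target (-0.87, a call lost without CDL replicate 1), and Cyp26a1, which degrades retinoic acid in the tail bud (200.9 ± 17.2 in CDL and 375 ± 33.1 in RDL, -0.86). Ripply2 passed the filter on dim signals only through its RDL day 4 arrays, so its direction here was tied to that filter. Mesp2 and Ripply2 are described in the mouse as depending on Tbx6, whose own difference was 0.21. The clock genes Hes7 (-0.04, adjusted p = 0.957) and Lfng (-0.06, adjusted p = 0.923) and the Notch ligands Dll1 (-0.09, adjusted p = 0.931) and Dll3 (0.05, adjusted p = 0.952) gave no call.

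Of 13 tested markers of anterior presomitic mesoderm and of somites, 1 was higher and 5 lower in CDL at day 4 (median -0.60). Of all genes, 2.9% were higher and 1.52% lower. Without CDL replicate 1 the list counts were 0 and 4, when the calls of Epha4 and Foxc2 were lost. The somite factors Meox1 (97.2 ± 10.8 in CDL and 581 ± 104 in RDL, -2.42) and Tcf15 (91.4 ± 13.6 in CDL and 395 ± 75.4 in RDL, -1.96) fell most, followed by Dmrt2 (-1.67) and Foxc2 (-1.32). Epha4 was the one that was higher (0.58). Pcdh8 was lower in CDL as these were, while Msgn1 was higher as the called upstream genes were. The part of the cells' makeup in these differences was not tested.

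Towards day 6 the 4 genes fell together with the upstream list, of which 16 of 16 fell in CDL (median -2.47, or 15 of 16 without CDL day 4 replicate 1) and 15 of 16 in RDL (median -2.30). In CDL the largest falls were of Mixl1 (-5.07), Fgf8 (-4.57) and Fgf4 (-3.80), and in RDL of Mixl1 (-4.22), Fgf8 (-4.21) and the caudal factor Cdx1 (-3.60). Of the 13 Notch and segmentation genes 8 fell and 2 rose (Hey1 and Hes1) in CDL, and 11 fell and 1 rose (Cyp26a1) in RDL. Wnt8a, Fgf17, Cdx4 and Ripply2 passed the filter on dim signals only through day 4 arrays, so their directions here were tied to it. The anterior and somite list went the other way, with 10 higher and 1 lower of 13 in CDL (median 3.18) and 8 higher and 1 lower in RDL (median 1.37). Of all genes, 17.4% were called higher in CDL and 13.8% in RDL, and 22% were called lower in CDL and 17.2% in RDL. Uncx, a somite homeobox gene, rose by 5.72 in CDL and 3.14 in RDL, and Meox2 rose by 4.28 in CDL and 4.78 in RDL. Meox2, and Pax1 of the same list, passed the filter on dim signals only through day 6 arrays, and Uncx could not pass without its own. Their directions here were tied to that filter. Pax3, whose reporter chose the day 6 cells, is in this list and had 522.5 ± 91.9 in CDL day 6 and 303.5 ± 57.7 in RDL day 6.

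**Figure D4:**
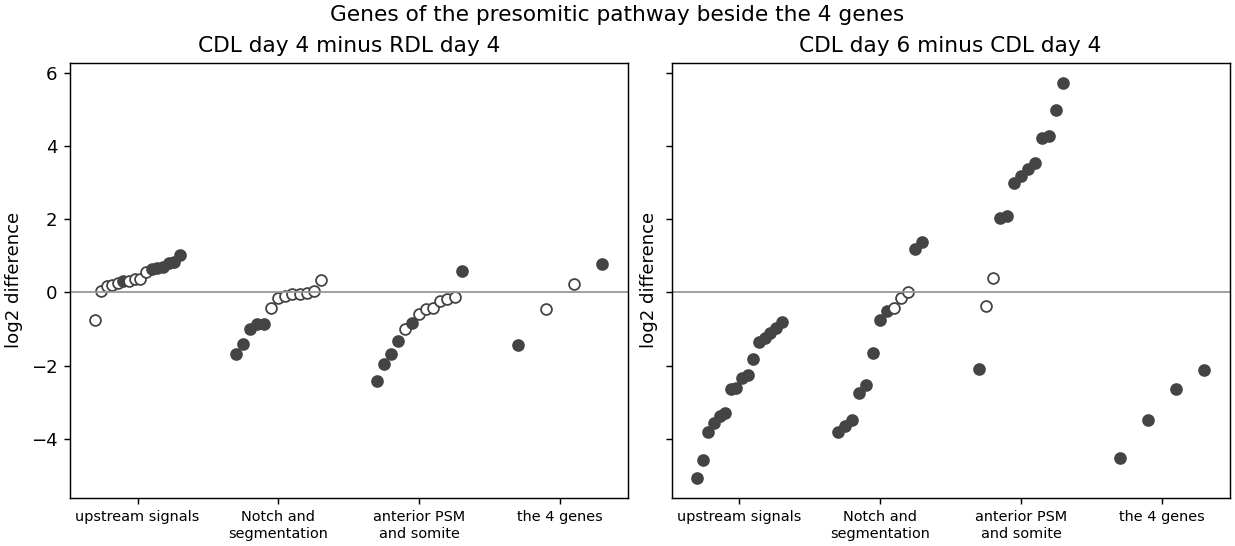
Log2 difference of each tested gene of 3 pathway lists and of the 4 genes (rightmost), for CDL minus RDL at day 4 (left) and CDL day 6 minus CDL day 4 (right); genes are sorted within a list and filled where the adjusted p was under 0.05. At day 4 the called upstream genes lay above 0 and the called Notch and segmentation genes below it; by day 6 the upstream list and the 4 genes lay below 0 and most of the somite list above it.

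At day 6, where the 4 genes gave no call between the media, 6 of the 13 Notch and segmentation genes were higher in CDL and 1 lower (median 0.58), beside 3.68% and 3.94% of all genes. Dll1 was the most different (381 ± 128.5 in CDL and 77.9 ± 30.9 in RDL, 2.14), followed by Cyp26a1 (200.3 ± 12.9 in CDL and 697 ± 132 in RDL, -1.72), and Hey1 (1.26). The interaction was called for 7 of these genes upward and 1 downward, beside 2.31% and 3.08% of all genes. Ripply2 was at 1.81, Mesp2 at 1.45 and Mesp1 at 1.35, beside 1.59 for Pcdh8. For Ripply2 the direction was again tied to the filter on dim signals. Of the anterior and somite list 5 were higher and 2 lower in CDL at day 6 (median 0.27), led by Aldh1a2, which makes retinoic acid (1.95), and Uncx (1.59). Of the upstream list 2 were higher and 1 lower, and 0 and 1 without RDL day 6 replicate 1, when the calls of Axin2 and Lef1 were lost.

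Relatives of the 4 genes were mostly dim. Of 16 other T-box genes 14 had a usable probe set and 4 were tested (Eomes, Tbx3, Tbx18 and Mga), and of 10 other non-clustered protocadherins 2 were tested (Pcdh7 and Pcdh18). Brachyury itself (T) is not analysed here. At day 4 none of these 6 relatives was called between the media, with Tbx3 at 0.81 (adjusted p = 0.382), Eomes at -0.75 (adjusted p = 0.133) and Pcdh7 at 0.62 (adjusted p = 0.104); without RDL day 6 replicate 1, which also enters the spread, 1 of each family was called. Against ES cells Pcdh7 and Pcdh18 were higher at day 4, as were Pcdh8 and Pcdh19, by 2.00 and 2.27 in CDL and by 1.38 and 2.40 in RDL. Pcdh18 was at 475 ± 16.3 in RDL day 6, against 202 ± 34.9 in RDL day 4 (1.19, adjusted p = 0.000176), where Pcdh8 and Pcdh19 fell. Pcdh7 fell in CDL (-1.82, adjusted p = 2.53e-06). Of 4 T-box genes 3 were lower than in ES cells at day 4 in each medium, led by Tbx3 (-2.98 in CDL and -3.79 in RDL), whereas Tbx6 was higher. Of all genes, 29.6% were lower in CDL and 29.5% in RDL.

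Among 13 genes of adhesion and of the epithelial to mesenchymal transition, the E-cadherin gene Cdh1 was higher in CDL than in RDL at day 4 (1174 ± 309 in CDL and 423 ± 70.8 in RDL, 1.43, adjusted p = 0.000974), and so was Epcam (419 ± 49.2 in CDL and 241 ± 27.5 in RDL, 0.76). Both genes were also bright in ES cells, where Cdh1 had 2560 ± 164 and Epcam 399 ± 13.2. Both calls held without CDL replicate 1, while that of Twist1, the one gene of the list that was lower (-0.65), was lost (-0.50). The N-cadherin gene Cdh2 gave 0.22 (adjusted p = 0.612). So of the adhesion genes named, Cdh1 and Epcam were higher in CDL where Pcdh8 was lower.

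The 4 genes followed each other across the 15 arrays with Pearson's r of 0.98 for Msgn1 and Tbx6, 0.98 for Tbx6 and Pcdh19, 0.97 for Pcdh8 and Pcdh19, 0.94 for Msgn1 and Pcdh19, 0.92 for Tbx6 and Pcdh8 and 0.84 for Msgn1 and Pcdh8. These values describe 15 arrays in 5 groups and carry no test; for each gene the day 4 arrays lay above all others and span most of its range. The genes most like Msgn1 by this measure were Isg20, Gbp3 and Nme5 (0.99 each), and Psmb8 and Wnt8a (0.98 each). Gbp3, a guanylate-binding protein, had 307 ± 29.2 in CDL and 175 ± 13.7 in RDL at day 4 and 19.2 ± 1.69 in ES cells. Most like Tbx6 were Cited1 (0.998), and Gbp2b, Fgf8, Gbp2 and Hes7 (0.99 each). Most like Pcdh8 were Hoxd1 (0.99), Naaa and Sac3d1 (0.98 each), and Adamts20 and Pcdh19 (0.97 each), and Hoxd1 had 160 ± 24.6 in CDL and 269.7 ± 25.6 in RDL at day 4. Most like Pcdh19 were Acta1 (0.996), and Fgf13, Synm, Cited1 and Fgf8 (0.99 each).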

How the data were processed

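RNA was amplified by a two-cycle labelling protocol and hybridised to 1-colour Affymetrix arrays, per the labels' protocols. The authors deposited 1 table of signal intensities on a linear scale, made with MAS5 per the submitters' processing notes; its version, the scaling target and the genome build are not given in the sources used here. Detection calls were not used; precision is limited by how few arrays there are. Of 45101 probe sets, 64 controls were left out, 34945 carried 1 gene symbol, 932 several and 9160 none, in an annotation that can be old. A gene's brightest single-symbol probe set stood for it. The deposited values were turned into log2(signal + 12.6), the constant being the median over arrays of the 25th percentile, and genes above the array median on at least 3 of 15 arrays were tested, leaving out 5793 dim genes. Differences come from limma 3.58.1 (R 4.3.3) on the means of 5 groups of 3 arrays, with an intensity trend, Benjamini-Hochberg adjustment over 12400 genes, a threshold of 0.05 and 95% intervals. The script was tested on simulated data. Figures were drawn with matplotlib 3.10.9 (Python 3.11.15).

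The members, gene lists and tests were chosen with earlier results of these data known. The text names the 4 genes always, up to 4 called genes with the largest difference per list and comparison, and the 5 genes with the highest Pearson's r to each member; other list genes were named after their values were seen. The alternatives were constants of 1 and 32, no filter, quantile normalization, the mean of a gene's probe sets, its other probe sets, no trend, only the groups compared, a replicate block, each array left out and both arrays that stood apart left out. The other probe sets were tested in a fit over 21613 probe sets. List counts without those arrays were added after seeing the data. For RDL day 6 against RDL day 4 the same-numbered arrays deviated together (correlations of 0.285, 0.258 and 0.219), so they count as paired. The replicate block changed none of the 4 calls there and gave 3662 genes called, against 3838 without it. Replicates are labelled biological, and nothing says whether they were separate cultures on separate days.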

Additional observations from a re-analysis of the deposited data

Results flagged for a closer look

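The difference between the media in Pcdh8 was not the same at both days, by the limma test of the interaction: CDL minus RDL at day 6 minus CDL minus RDL at day 4 was 1.59 on the log2 scale (adjusted p = 0.0353). The signals behind it were 56.8, 61.1 and 36.3 in CDL day 6, 27.9, 60.0 and 50.1 in RDL day 6, 141, 370 and 329 in CDL day 4, and 635, 917 and 663 in RDL day 4. The adjusted p lay between 0.017 and 0.103 over 22 alternatives, and 9 of these did not pass the threshold. Without CDL day 4 replicate 1 the value was 1.18 (adjusted p = 0.0426), and without that array and RDL day 6 replicate 1 it was 0.94 (adjusted p = 0.0325). Day, cell line and sort reporter cannot be told apart here.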

How the results depend on the processing

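The 36 differences of the 4 genes had 591 alternative values. Of these, 568 kept their side of the threshold, 18 lost the call, 4 gained one and 1 lost it with a change of sign. Differences without a call counted as kept even where their sign changed, as for Tbx6 between the media at day 6 (-0.13 to 0.08). The causes were not tested. Pcdh19 in CDL day 4 against RDL day 4 was called with its second probe set (-0.65). Against ES cells, Tbx6 lost its call with a constant of 32 in CDL day 6 (0.24) and RDL day 6 (0.25), and Pcdh19 lost it with its dimmest probe set in CDL day 6 (-0.0143, the change of sign) and RDL day 6 (0.18). Msgn1 in CDL day 6 against RDL day 6 was called with a constant of 1 (0.60), with only the groups compared (0.46) and with the replicate block (0.46). Its limma adjusted p lay between 0.00529, with the block, and 0.202 over 15 alternatives. The Pcdh8 interaction lost its call with a constant of 1 (1.69), with only the groups compared (1.59) and with its second probe set (1.49).

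Leaving out 1 array at a time gave -1.69 to -1.04 for Pcdh8 in CDL day 4 against RDL day 4, and 1.18 to 1.84 for its interaction. Against ES cells it gave 0.30 to 0.51 for Tbx6 in RDL day 6, 0.32 to 0.45 for Tbx6 in CDL day 6 and 0.37 to 0.56 for Msgn1 in CDL day 6. The genes called ranged from 341 (without RDL day 4 replicate 2; 353 without replicate 1) to 577 for the media at day 4 (547 with all arrays). They ranged from 684 to 1512 for the media at day 6 (944 with all arrays) and from 482 to 1216 for the interaction (668 with all arrays), both highest without RDL day 6 replicate 1. Without both arrays that stood apart, 1776 genes were called for the media at day 6 and 1237 for the interaction, and 442 were called for the media at day 6 with only the groups compared. Except for RDL day 6 against RDL day 4, same-numbered arrays were not counted as paired. For the media at day 6 their deviations correlated at 0.609, 0.588 and -0.241 for replicates 1 to 3, so pairing there is unsettled. For CDL day 6 against CDL day 4 they correlated at 0.072, 0.138 and 0.139, each best with its own number. The replicate block gave 475 called genes for the media at day 4 (each of 3 pairs correlated best with its own number, a hint from the data), 1078 at day 6 and 654 for the interaction. The dim signals of Tbx6 and Msgn1 outside day 4, near the array medians, limit what can be read from their small differences.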
